A study of Mus musculus with 8 samples.

Results

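Laminin chains and integrin subunits were compared between skin fibroblasts of Nd2-mutant mice and of control mice. The members were chosen by symbol alone, as every probe of the array named for a laminin alpha, beta or gamma chain or an integrin alpha or beta subunit. These were 49 of 25697 probes and 31 genes, 8 laminin chains (11 probes) and 23 integrin subunits (38 probes). The Nd2-mutant mice were of the conplastic strain C57BL/6J-mtALR/LtJ, whose mitochondrial genome carries a leucine to methionine exchange in NADH dehydrogenase subunit 2, a complex I protein, and the controls were C57BL/6J-mtAKR/J mice. Both strains were backcrossed to the nuclear genome of C57BL/6J, so that the mutation is carried by the whole animal and not by skin alone. Each strain gave 4 mice of 12 months, 2 male and 2 female, with 1 array per mouse and no pooling. Cells were dissociated from skin with Liberase, grown in DMEM with serum and antibiotics, used at passage 1 and given no further treatment. The question for these genes is whether the strains differ in the parts by which fibroblasts hold on to matrix.

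Laminins are the cross-shaped glycoproteins of basement membranes, each built from an alpha, a beta and a gamma chain. Integrins are the receptors that tie cells to laminins, collagens and fibronectin, each a pair of an alpha and a beta subunit, and they join the matrix outside the cell to actin inside it through an adhesion plaque. Dermal fibroblasts are known for integrins that hold collagen and fibronectin, and basal keratinocytes, endothelial cells and nerve sheath cells for integrins that bind laminins. Neither kind is confined to these cells.

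The arrays measured the intensity of each probe, quantile normalized and background subtracted by the authors, with a detection p-value. Detected means a detection p-value under 0.01, and between 41.5% and 44.2% of all probes were detected on an array. The labelled cell type was borne out by its markers: 8 of 9 measured fibroblast genes were detected on all 8 arrays, with a summed intensity from 34718 to 39675 in Nd2-mutant mice and from 28799 to 42024 in control mice. The array of control mouse 15, a female, stood apart, correlating with the remaining arrays at 0.934 on average where those lay between 0.963 and 0.974, and values without it are given where it moves a result. In Nd2-mutant mouse 35 the summed intensity of 12 macrophage markers was 2074, against at most 663 in the other 7 mice. As the RNA is that of whole cultures, fewer cells of a type and less RNA per cell cannot be told apart.

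Of the 31 genes, 14 had a tested probe, 8 were detected on some arrays but too few to be tested, and 9 were detected on no array. A probe was tested if all 4 arrays of at least 1 strain detected it. This left 19 of the 49 probes, and all 19 were detected on all 8 arrays, so that none was tested merely because 1 strain was bright. Differences are given as Nd2 mutant minus control on the scale of log2(intensity + 16), which understates the change of dim probes, and the p-values are those of limma, 2-sided, adjusted by the Benjamini-Hochberg method across 10414 tested probes.

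No laminin or integrin differed between the strains after adjustment over all probes. The smallest adjusted p among the 19 probes was 0.639 (limma), and over the whole array limma called 0 probes (0%), with 795 at an unadjusted p under 0.05, while the methods' t-test called 1. Without adjustment, 6 of the 19 probes had a p under 0.05, 4 lower and 2 higher in Nd2-mutant fibroblasts. Over all tested probes the same mark was passed by 3.13% as lower and 4.5% as higher. The 4 lower probes were those of the laminin chain Lama1 and of the laminin-binding subunits Itga3, Itga7 and Itgb4 (1 of its 2 probes). Itga6, another laminin-binding subunit, was detected on no array. The 2 higher probes were those of the laminin chain Lama2 and of the collagen-binding subunit Itga11 (1 of its 3 probes). The median of the 19 differences was -0.07 on the log2 scale, against 0.00 over all tested probes, with 11 lower and 8 higher (49.8% of all tested probes were lower). The 4 values of a strain all lay beyond those of the other for 1 lower and 1 higher member probe, where 2.13% and 2.24% of all tested probes did so. Control mouse 15 had the highest value of all 8 mice in 11 of the 19 probes, compared with 26.4% of all tested probes, and its part in the differences is given with each gene.

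Of the 6 genes with a probe at an unadjusted p under 0.05, 3 (Itga3, Itga11 and Lama2) had a window in the RefSeq promoter table of GRCm38.p6, and Itga7, Itgb4 and Lama1 had none. The 250 bases upstream of the start of Itga3 (the first of its 2 windows), which was lower, and of Lama2, which was higher, are shown to set the contrasting start regions side by side. Capitals mark matches on either strand to the Sp1 box GGGCGG and to the CArG box, the sequence bound by serum response factor. The TATA box TATAAA and the AP-1 site TGANTCA were searched too, without a match, and no matches overlapped. A match describes the letters of the window and is not a site or a cause.
Itga3, chr11:95076715-95076964, minus strand: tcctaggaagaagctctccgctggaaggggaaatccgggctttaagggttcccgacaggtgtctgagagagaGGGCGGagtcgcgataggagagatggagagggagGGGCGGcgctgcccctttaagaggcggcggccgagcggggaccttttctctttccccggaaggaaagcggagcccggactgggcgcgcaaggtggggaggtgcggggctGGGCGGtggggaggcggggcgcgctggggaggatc
Lama2, chr10:27616943-27617192, minus strand: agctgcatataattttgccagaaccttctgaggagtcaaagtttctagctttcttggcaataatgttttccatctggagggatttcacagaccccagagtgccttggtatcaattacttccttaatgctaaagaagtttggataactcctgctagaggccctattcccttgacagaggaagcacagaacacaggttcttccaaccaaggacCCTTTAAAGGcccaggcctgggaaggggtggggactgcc
The start region of Itga3 was 67.6% G and C with 22 CpG and 3 Sp1 boxes, which 32.7% of 32851 windows of this length hold at least once. That of Lama2 was 47.2% G and C with 0 CpG and 1 CArG box, which 1.47% of the windows hold. The start region of Itga11 was 68.4% G and C with 12 CpG and none of the 4 motifs. The AP-1 site stood in 6.75% and the TATA box in 12.4% of the windows.

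The laminin alpha chains decide which receptor a laminin meets. Lama1 (ILMN_2973288, chromosome 17), the alpha chain of the laminin of early embryonic basement membranes, had intensities of 25.8, 66.9, 20.4 and 34.7 in Nd2-mutant mice 28, 32, 34 and 35, and of 140, 65.9, 90.5 and 60.7 in control mice 15, 16, 17 and 37. Mouse 32 reached the level of the lower control mice, and the other 3 Nd2-mutant mice lay below every control mouse. The difference was -1.01 on the log2 scale (95% confidence interval -1.65 to -0.37, limma; adjusted p = 0.639), with an exact permutation p of 0.0857. Without mouse 15 it was -0.80.

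Lama2 (ILMN_2769479, chromosome 10), the alpha chain of the laminin around muscle fibres and Schwann cells, which is also made by mesenchymal cells, went the other way. Its intensities were 191, 152, 147 and 136 in Nd2-mutant mice 28, 32, 34 and 35 and 57.5, 100, 145 and 120 in control mice 15, 16, 17 and 37. The strains overlapped only in control mouse 17, and mouse 15 was the lowest of all. The difference was 0.55 (95% confidence interval 0.04 to 1.06, limma; adjusted p = 0.639; exact permutation p = 0.0571). It was 0.32 without mouse 15, with an unadjusted p of 0.0726 in limma, and that p was also over 0.05 without mouse 16, 28, 32 or 34, at up to 0.102 (limma). The methods' t-test gave an unadjusted p of 0.0818 for Lama2. Limma gave 0.0768 with array weights and 0.0635 without the detection filter.

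The third alpha chain measured, Lama4, a chain of vessel walls, was detected on 3 arrays with an intensity of at most 14.6. Lama1 is on the study's own list of lower genes from these arrays, as are Itga3 and Lamc3, so that their direction in the same arrays is not independent evidence.

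Among the beta chains, Lamb2 (ILMN_2699488, chromosome 9), a chain of mature basement membranes, had intensities from 593 to 728 in the 4 Nd2-mutant mice and of 1381, 699, 697 and 622 in control mice 15, 16, 17 and 37. Apart from mouse 15 the strains lay in the same range. The difference was -0.28 (95% confidence interval -0.80 to 0.24, limma) and -0.03 without mouse 15. The beta chain listed under the older symbol Lamb1-1, which falls outside the rule, had a difference of -0.01 (95% confidence interval -0.45 to 0.44, limma).

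The gamma chain Lamc1 (ILMN_2974798, chromosome 1) is part of most laminins. The 4 Nd2-mutant mice had an intensity of 1102 ± 189 (SD, n = 4) and the 4 control mice of 899 ± 190.2 (SD, n = 4), a difference of 0.30 (95% confidence interval -0.14 to 0.74, limma). The mice of each strain spread over as wide a range as this difference, which was 0.13 without control mouse 16, the lowest.

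Lamb3 and Lamc3 were too dim to be tested. Lamb3 (ILMN_2605512, chromosome 1), a beta chain of the laminin under the epidermis, was detected on 4 arrays. Its intensity was 34.5 in Nd2-mutant mouse 32 and 35.5 in control mouse 15, and at most 13.5 in the other 6 mice. The summed intensity of 10 keratinocyte markers was also highest in these mice, at 1238 in mouse 32 and 1015 in mouse 15, against at most 696 in the other 6. Among these markers, Krt14, a keratin of basal keratinocytes, was 1007 and 812 in mice 32 and 15 and at most 498 in the others, and Col17a1, a hemidesmosome collagen, was 43.5 and 48.7 and at most 25.3. Krt10, a keratin of the upper epidermis and the only other marker of this list detected on all 8 arrays, did not follow them, with 111 in mouse 32, 90.9 in mouse 15, the lowest of all, and 103 to 150.4 in the other 6. Trp63, detected on 4 arrays, did not follow them either, with 23.9 and 22.6 in mice 17 and 28 against 19.3 and 14.2 in mice 32 and 15. Krt5, the partner of Krt14, was detected on 1 array only, with 14.5 in mouse 32 and 0.62 in mouse 15. Krt15 was 1.4 in mouse 32 and 13.5 in mouse 15. Cdh1 (16.3 and 26.3) and Dsp (17.3 and 5.9), both dim, were highest in mice 32 and 15. Krt1 (under its older symbol Krt2-1) and Sfn were detected on no array.

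Lamc3 (ILMN_3040693, chromosome 2) was detected on no Nd2-mutant array, with intensities from -0.6 to 5.3, and on 2 control arrays, at 36.3 in mouse 15 and 35.04 in mouse 16, beside 6.3 and 11.6 in mice 17 and 37. The control mean on the scale of log2(intensity + 16) lay 1.33-fold above a limit set by the dimmest detected signal of each Nd2-mutant array. That mean holds the undetected values of mice 17 and 37 as measured, so 1.33 is not a strict lower bound. The same ratio, of the strain with a detected array to the limit of the other, was 0.76 to 0.88 for Itga2, Itgb3, Itgb6 and Itgb7. The other probe of Lamc3 was not well above background on any array.

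**Figure D1:**
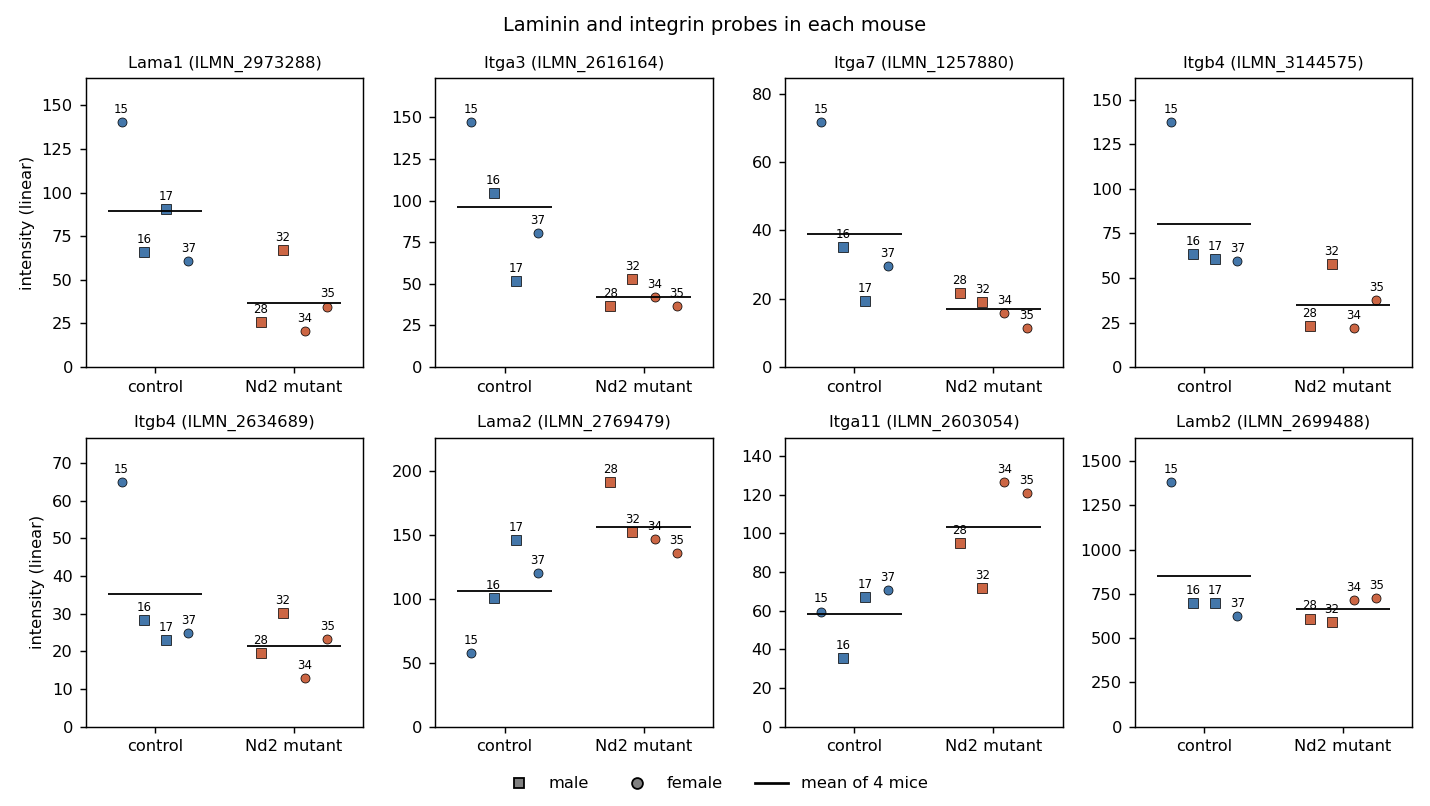
Intensity (linear scale, from 0) of 8 probes of laminin and integrin genes in each control and Nd2-mutant mouse; squares are males, circles females, numbers name the mouse and lines are means of 4 mice. Control mouse 15 was highest for Lama1, Itga3, Itga7, Itgb4 and Lamb2 and lowest for Lama2, and Nd2-mutant mouse 32 came closest to the control mice for Lama1 and for Itgb4 (ILMN_3144575).

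The laminin-binding integrins were lower in Nd2-mutant fibroblasts in 4 of 4 tested probes, with a median difference of -0.77 on the log2 scale, and 3 of the 4 had an unadjusted p under 0.05, where 3.13% of all tested probes did so as lower. Control mouse 15 was the highest of the 8 mice in 4 of these 4 probes, compared with 26.4% of all tested probes, and the median was -0.53 without it. Itga3 (ILMN_2616164, chromosome 11), which pairs with the beta1 subunit and binds laminins of the skin, had intensities of 36.6, 52.6, 42.4 and 36.6 in Nd2-mutant mice 28, 32, 34 and 35. In control mice 15, 16, 17 and 37 they were 147, 104, 51.6 and 80.5. Only control mouse 17 lay as low as the Nd2-mutant mice, of which mouse 32 was the highest. The difference was -0.88 (95% confidence interval -1.42 to -0.34, limma; adjusted p = 0.639; exact permutation p = 0.0571), and it was -0.68 without mouse 15 and -1.10 without mouse 17.

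Itga7 (ILMN_1257880, chromosome 10), the laminin receptor subunit best known from muscle, was dim in both strains. Its intensities were 21.6, 18.9, 15.9 and 11.5 in Nd2-mutant mice 28, 32, 34 and 35 and 71.6, 35.2, 19.4 and 29.6 in control mice 15, 16, 17 and 37. Mouse 17 was again the control mouse within the Nd2-mutant range. The difference was -0.66 (95% confidence interval -1.22 to -0.11, limma; adjusted p = 0.639; exact permutation p = 0.0571). Without mouse 15 it was -0.41. The methods' t-test gave an unadjusted p of 0.0632 for Itga7, and limma gave 0.0639 without mouse 35 and 0.101 on the linear scale.

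Itgb4, which pairs with the alpha6 subunit and anchors epithelial cells in hemidesmosomes, had 2 probes on chromosome 11. For ILMN_3144575 the intensities were 23.1, 57.7, 21.8 and 37.6 in Nd2-mutant mice 28, 32, 34 and 35 and 137, 63.4, 60.4 and 59.3 in control mice 15, 16, 17 and 37. The strains did not overlap, although mouse 32 lay just under control mouse 37, and mouse 15 lay far above the other 3 control mice. The difference was -0.90 (95% confidence interval -1.51 to -0.28, limma; adjusted p = 0.639). Its exact permutation p of 0.0286 is the lowest possible with 4 against 4 mice. Without mouse 15 the difference was -0.65, and on the linear scale the unadjusted p was 0.0586 (limma).

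For the second probe of Itgb4, ILMN_2634689, the values were 19.6, 30.1, 12.8 and 23.2 in mice 28, 32, 34 and 35 and 65.0, 28.4, 22.9 and 24.8 in mice 15, 16, 17 and 37. Here the strains overlapped, and the difference of -0.41 (95% confidence interval -0.95 to 0.14, limma) came to -0.16 without mouse 15, more than 1.5 times smaller. The only probe of Itga6, the partner of Itgb4, was detected on no array (intensity at most 7.40).

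Some markers of several other cell types were high in mouse 15 as well. Of 9 endothelial markers, 5 were detected on all 8 arrays and 1, Kdr, on none. Their summed intensity was between 366 and 567 in Nd2-mutant mice and between 506 and 1363 in control mice, with 1363 in mouse 15 and 766 in mouse 16. Pecam1, an endothelial adhesion molecule, was 88.6 in mouse 15 and between 14.2 and 33.5 in the other 7 mice. Tek and Emcn, also detected on all 8 arrays, were not highest in mouse 15. Tek was 49.2 there, against 91.2 in Nd2-mutant mouse 35 and 63.1 in Nd2-mutant mouse 28. Emcn was 249 there, against 272 in control mouse 16. Of 5 Schwann cell markers, 2 were detected on all 8 arrays and 3, Gfap and S100b among them, on none, and their sum was 156 in mouse 15 and at most 84.0 in the others. Of 8 smooth muscle and pericyte markers, 6 were detected on all arrays and 2 (Cnn1 and Rgs5) on none. Their sum was 11061 to 14420 in Nd2-mutant and 12953 to 14806 in control mice, most of it from Acta2, an actin that is also made by activated fibroblasts. The median log2 level of the same 8 markers did not overlap between the strains, at 5.38 to 5.68 in Nd2-mutant and 5.77 to 6.83 in control mice. The difference was -0.68 for this median and -0.18 for the log2 of the sum. Myh11, the smooth muscle myosin, was 227 in mouse 15 and at most 99.0 elsewhere, whereas Tagln, an actin-binding protein of smooth muscle, was 374 in mouse 15, the second lowest value, and 353 to 1112 in the other mice. The keratinocyte sum was 212 to 1238 in Nd2-mutant and 346 to 1015 in control mice. Whether these cell types had a part in the levels of Lama1, Itga3, Itga7 and Itgb4 was not tested. Without mouse 15, Lama1, Itga3, Itga7 and Itgb4 (ILMN_3144575) still had an unadjusted p under 0.05 in limma, between 0.0073 for Itga3 and 0.0345 for Itga7.

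**Figure D2:**
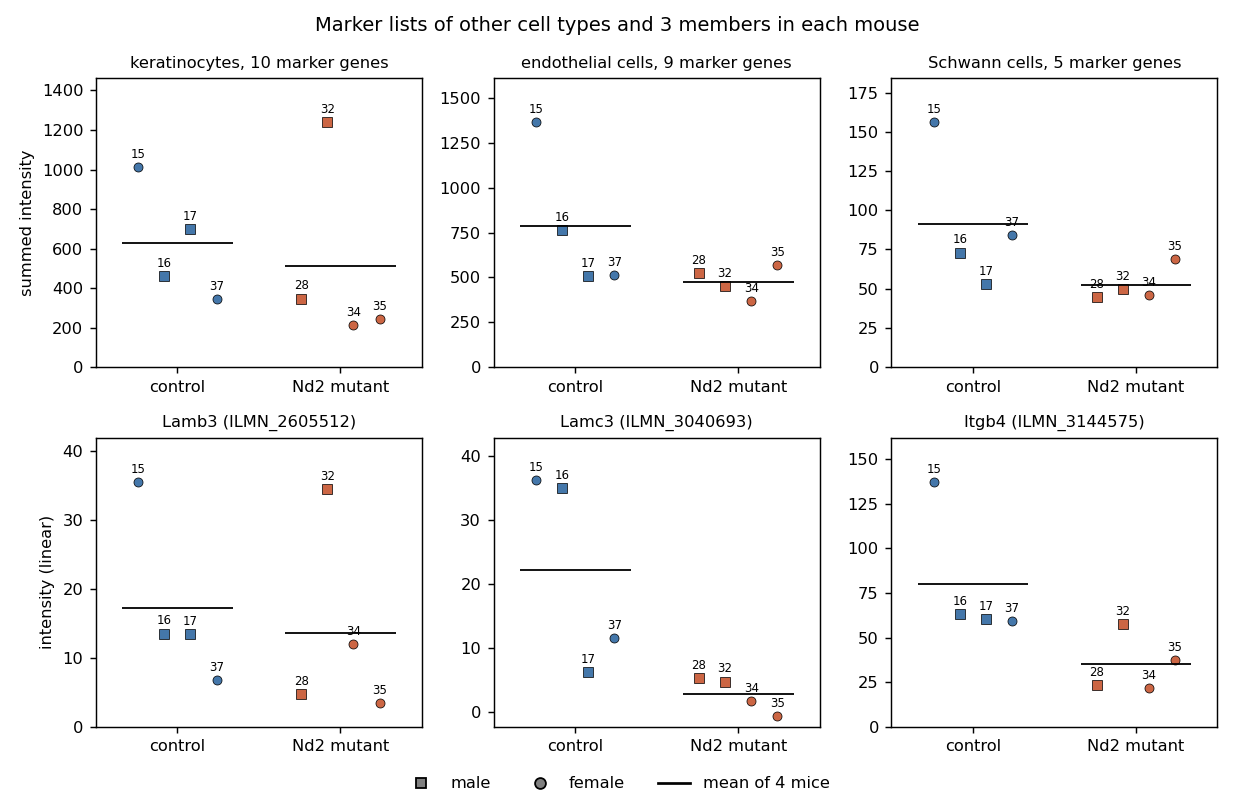
Summed intensity of the markers of 3 other cell types (upper row) and intensity of Lamb3, Lamc3 and Itgb4 (lower row) in each mouse, on linear scales; squares are males, circles females, numbers name the mouse and lines are means of 4 mice. Mice 15 and 32 were the highest both for the keratinocyte sum (1015 and 1238) and for Lamb3 (35.5 and 34.5), and mouse 15 was the highest for the endothelial and Schwann cell sums, Lamc3 and Itgb4.

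The collagen-binding integrins had 4 tested probes, 3 of Itga11 and 1 of Itga1, all with a difference above 0, as had 5223 of all 10414 tested probes. Without mouse 15, 1 of the 4, that of Itga1, was below 0. Itga11, a collagen receptor subunit typical of fibroblasts, had 3 probes on chromosome 9, which differed in size. For ILMN_2603054 the intensities were 94.7, 71.7, 126 and 121 in Nd2-mutant mice 28, 32, 34 and 35 and 59.5, 35.5, 67.1 and 70.8 in control mice 15, 16, 17 and 37. The strains did not overlap, though mouse 32 lay just above control mouse 37. The difference was 0.69 (95% confidence interval 0.22 to 1.16, limma; adjusted p = 0.639; exact permutation p = 0.0286), and 0.71 without mouse 15.

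The remaining probes of Itga11 were bright and showed no such gap. ILMN_2701778 had values of 5369, 5101, 5393 and 5279 in mice 28, 32, 34 and 35 and of 7243, 3405, 4502 and 5569 in mice 15, 16, 17 and 37. The 4 Nd2-mutant values lay close together within the wide range of the control mice. The difference was 0.08 (95% confidence interval -0.38 to 0.55, limma). ILMN_2844032 had values of 1683, 1361, 1450 and 1626 in mice 28, 32, 34 and 35 and of 2027, 921, 1420 and 1376 in mice 15, 16, 17 and 37, a difference of 0.14 (95% confidence interval -0.34 to 0.62, limma). Both turned negative without control mouse 16, to -0.10 and -0.05. The interval of the dim probe overlaps those of the bright ones, and the difference between the probes was not tested.

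Itga1 (ILMN_2967445, chromosome 13), a collagen IV receptor subunit, had nearly equal means, 58.8 ± 12.97 (SD, n = 4) with the Nd2 mutation and 59.1 ± 20.6 (SD, n = 4) without it. Its difference was 0.02 (95% confidence interval -0.46 to 0.49, limma). Itga2, the collagen receptor subunit of epithelial cells and platelets, was detected on 1 array only, with an intensity of at most 13.7.

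The integrins that bind RGD sequences, the short motif of fibronectin and vitronectin, had 4 tested probes, 2 higher and 2 lower. Itga5 (chromosome 15), the alpha subunit of the main fibronectin receptor, had probes of opposite sign and near 0. ILMN_2849449 was at 422, 839, 1074 and 629 in mice 28, 32, 34 and 35 and at 868, 688, 701 and 692 in mice 15, 16, 17 and 37, a difference of -0.07 (95% confidence interval -0.62 to 0.49, limma). ILMN_2670172 was at 135, 270, 322 and 190 in mice 28, 32, 34 and 35 and at 250.2, 170.1, 242 and 180.4 in mice 15, 16, 17 and 37, a difference of 0.06 (95% confidence interval -0.49 to 0.61, limma). Both probes ordered the Nd2-mutant mice in the same way, from mouse 28 as the lowest to mouse 34 as the highest, and the Nd2-mutant mice spread on either side of the controls.

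Itgav (ILMN_1238119, chromosome 2), the alpha subunit of the vitronectin receptors, was 168 ± 30.6 (SD, n = 4) in Nd2-mutant fibroblasts against 153 ± 41.6 (SD, n = 4) in the controls, a difference of 0.15 (95% confidence interval -0.33 to 0.63, limma). Itgb5 (ILMN_2663613, chromosome 16), a beta subunit that pairs with it, was 1298 ± 225 (SD, n = 4) against 1713 ± 464 (SD, n = 4), a difference of -0.37 (95% confidence interval -0.84 to 0.10, limma). The difference of Itgb5 was -0.23 without mouse 15, whose value of 2253 was the highest. Itgb3, the other main partner of Itgav, was detected on 1 array, Itgb6, an epithelial subunit, on 1 array with 1 of its 3 probes, and Itgb8 on none. Itga2b, the platelet subunit that pairs with Itgb3, was detected on 5 arrays of both strains with an intensity of at most 20.7. The summed intensity of 3 platelet markers was 20.6 to 86.7 in Nd2-mutant and 8.49 to 61.2 in control mice.

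Itgb1 (chromosome 8) is the common partner of the alpha subunits for laminin, collagen and fibronectin. ILMN_2789077 was at 151, 163, 120.2 and 144 in mice 28, 32, 34 and 35 and at 228, 133, 155 and 122 in mice 15, 16, 17 and 37. Only mouse 15 lay outside the common range. The difference was -0.10 (95% confidence interval -0.52 to 0.33, limma) and 0.07 without mouse 15. ILMN_2609304 was at 55.6, 65.9, 41.2 and 108 in mice 28, 32, 34 and 35 and at 136, 99.5, 45.0 and 67.2 in mice 15, 16, 17 and 37, a difference of -0.28 (95% confidence interval -0.95 to 0.40, limma) and of -0.06 without mouse 15.

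The leukocyte integrins were close to background. Of 6 genes with 13 probes, Itgam, Itgax, Itgad, Itgae and Itgb2 were detected on no array, and none of the 13 probes was tested. Itgb7, a lymphocyte subunit, was detected on 1 array, that of control mouse 16, at 18.9, with values from -3.4 to 4.9 in the other 7 mice. In Nd2-mutant mouse 35, the mouse with the highest macrophage marker sum, Itgam was -3.6, Itgb2 -1.1 and Itgax 3.6. In the same mouse Lyz2, a macrophage lysozyme, was 344, and Ptprc, which marks all leukocytes, was on no array detected. The 5 measured T and B cell markers were detected on no array. Itga4 and Itga9, subunits for VCAM-1 and tenascin, were detected on no array either.

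**Figure D3:**
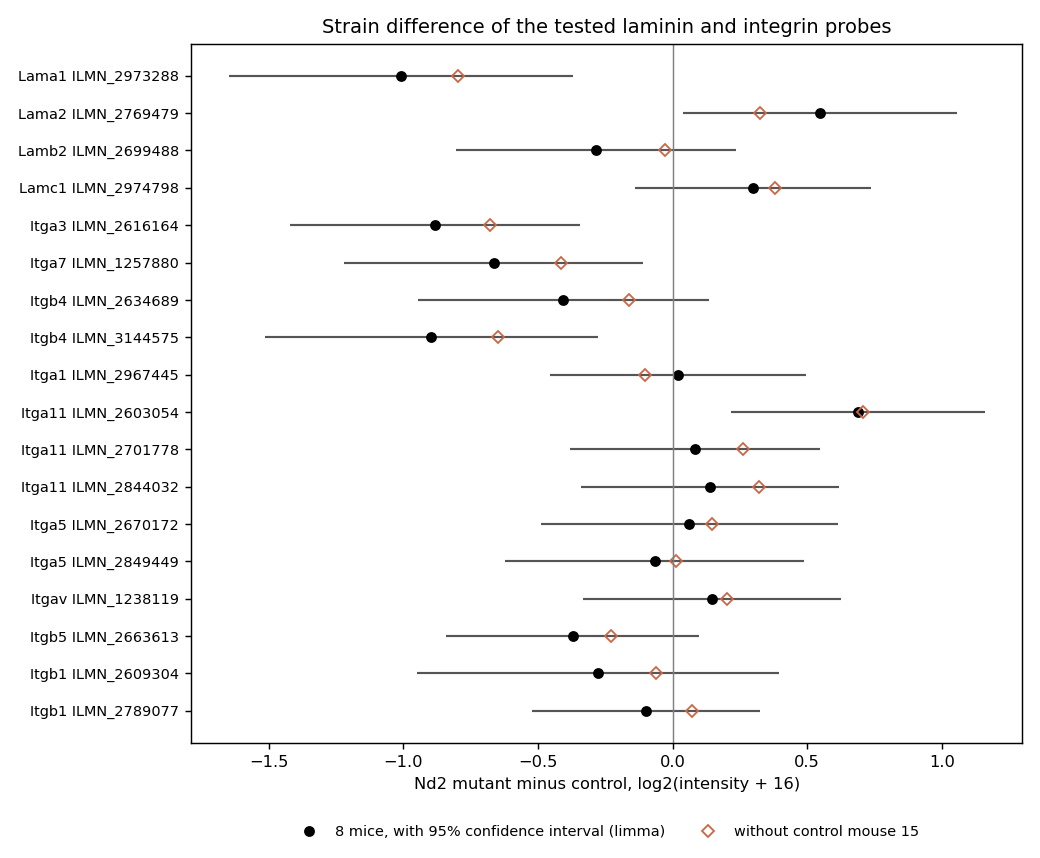
Difference between Nd2-mutant and control fibroblasts, on the scale of log2(intensity + 16), for 18 of the 19 tested probes of laminins and integrins, with 95% confidence intervals from limma (filled points, 8 mice) and the same difference without control mouse 15 (open diamonds). The intervals of Lama1, Itga3, Itga7, Itgb4 (ILMN_3144575), Lama2 and Itga11 (ILMN_2603054) leave out 0 before adjustment, and without mouse 15 those of Lama1, Itga3, Itga7, Itgb4, Lama2 and Lamb2 lie nearer to 0.

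Genes that work with laminins and integrins were compared in the same fit, as 4 lists with 91 genes on the array, of which 60 had a tested probe. None of their 83 tested probes passed adjustment, and 7 were higher and 8 lower at an unadjusted p under 0.05, where 4.5% and 3.13% of all tested probes were. The lists were written with earlier results of these data known, so these counts are a description and no evidence of an excess. The median difference was 0.01 on the log2 scale. Some of these genes have several probes that disagree. Smoc1, Sdc3, Sgcd, Cspg4 and Lims2 are on the study's own list of lower genes from these arrays. Their direction here is therefore not independent evidence.

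Of the other basement membrane genes, 11 had 13 tested probes (5 higher, 8 lower, median -0.09). Nid2, a nidogen that links laminin to collagen IV, was 521 ± 98.4 (SD, n = 4) in Nd2-mutant fibroblasts against 332 ± 67.9 (SD, n = 4) in the controls, a difference of 0.63 (95% confidence interval 0.20 to 1.06, limma). Col18a1, the collagen that holds endostatin, was 773 ± 176 (SD, n = 4) against 1319 ± 514 (SD, n = 4), a difference of -0.71 (95% confidence interval -1.26 to -0.16, limma) that was -0.48 without mouse 15, at 2078 the highest. Its other tested probe differed by -0.44 (95% confidence interval -0.98 to 0.10, limma). Smoc1, a dim calcium-binding matrix protein, had a difference of -0.64.

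Of the laminin receptors that are not integrins, 9 had 12 tested probes (5 higher, 7 lower, median -0.19). Sdc3, a syndecan, was at 431, 399, 474 and 450 in Nd2-mutant mice 28, 32, 34 and 35 and at 580.1, 543, 572 and 512 in control mice 15, 16, 17 and 37. The strains did not overlap, and the difference was -0.32 (95% confidence interval -0.60 to -0.04, limma). Sgcd, a sarcoglycan of the dystrophin complex, was lower without overlap by -0.53, at intensities of at most 28.1. Cspg4, a proteoglycan of pericytes, differed by -0.54.

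Of the integrin ligands, 14 had 24 tested probes (14 higher, 10 lower, median 0.03). Thbs1, thrombospondin 1, was at 1343, 905, 1018 and 563 in Nd2-mutant mice 28, 32, 34 and 35 and at 245, 266, 391 and 822 in control mice 15, 16, 17 and 37. Control mouse 37 alone lay within the Nd2-mutant range, and the difference was 1.22 (95% confidence interval 0.41 to 2.04, limma), or 1.02 without mouse 15. Fbln1, fibulin 1, differed by 0.63 at ILMN_2728985, but its other 2 probes by -0.06 and -0.07, and Tnc, tenascin C, by 0.95 at ILMN_1251943, but its other 5 probes by -0.07 to 0.33. Mfge8, a secreted RGD protein, differed by -0.48 at ILMN_3133448, or -0.31 without mouse 15, and by -0.28 at its other probe.

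Of the adhesion plaque genes, 26 had 34 tested probes (19 higher, 15 lower, median 0.08). Lims2, a LIM protein that binds integrin-linked kinase, was lower without overlap at 2 of 3 probes. For ILMN_2942674 its intensities were 54.3, 114, 94.6 and 68.7 in Nd2-mutant mice 28, 32, 34 and 35 and 125, 169, 124 and 194 in control mice 15, 16, 17 and 37, a difference of -0.79 (95% confidence interval -1.28 to -0.30, limma). ILMN_2738345 differed by -0.70 and the third probe by -0.01. Dab2, an adaptor for integrin uptake, was higher without overlap at both of its tested probes, by 0.50 (ILMN_1243329) and 0.56 (ILMN_3091641). Mouse 35, the mouse with the highest macrophage marker sum, was the highest at both, at 1309 and 1011, and without it the differences were 0.33 and 0.44. Actn4, an actinin, differed by 0.83 at ILMN_1242390, which was detected on 1 control array, and by 0.40 and 0.48 at its other probes.

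**Figure D4:**
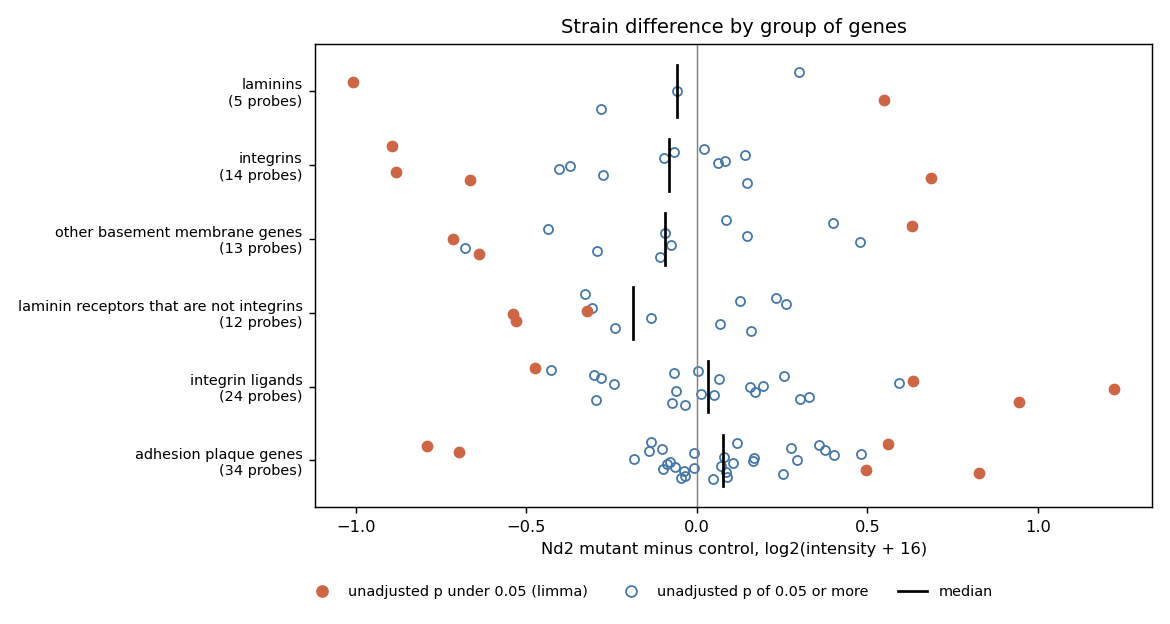
Difference between Nd2-mutant and control fibroblasts on the scale of log2(intensity + 16) for each tested probe of laminins, integrins and 4 lists of partner genes; filled points have an unadjusted p under 0.05 (limma), open points do not, and vertical lines are medians. Medians lie between -0.19 and 0.08, and probes with an unadjusted p under 0.05 stand on both sides of 0 in every group but the laminin receptors that are not integrins, where 3 of 3 are lower.

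The sexes were compared in a fit that also held strain. No laminin or integrin probe had an adjusted p under 0.05 for sex (smallest 0.578, limma), and 2 of 19 had an unadjusted one, where 8.31% of all tested probes did. Of these, Itga11 (ILMN_2603054) was lower in males, with a male minus female difference of -0.41 ± 0.18 (SE; adjusted p = 0.592, limma). The interaction of strain and sex had an unadjusted p under 0.05 for 0 of 19 probes, against 1.77% of all tested probes, and 0 probes passed after adjustment (limma). Within each sex alone, where 2 mice stand against 2, the differences of Lama1 were -0.67 in males and -1.35 in females. Those of Itga3 were -0.59 and -1.18, of Itga7 -0.23 and -1.10, and of Itgb4 (ILMN_3144575) -0.54 and -1.25. The female values are the larger in all 4. Mouse 15 is a female, and its part in this was not tested.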

How the data were processed

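Total RNA of cultured skin fibroblasts was hybridised to Illumina MouseRef-8 v2.0 arrays. The deposited intensities were extracted by the authors with GenomeStudio, per the submitters' notes (version not given in the sources used here), quantile normalized and background subtracted, and each has a deposited detection p-value. The 2 deposited tables hold the same values, so alternatives that need unnormalized intensities were not run. Intensities under 0 were set to 0, 16 was added and log2 taken. Probes detected (detection p-value under 0.01) on all 4 arrays of at least 1 strain were fitted with limma 3.58.1 in R 4.3.3, and p-values were adjusted by Benjamini-Hochberg over all 10414 tested probes. Scripts were tested on simulated data. Each array is 1 mouse, so the spread is between animals, and 4 arrays per strain limit the precision. Single members were also compared with a 2-sided exact permutation test. Members, lists and markers were chosen with earlier results of these data known. Values by mouse are given for members with an unadjusted p under 0.05, without overlap, on the study's list of lower genes, with probes of opposite sign, for detected leukocyte integrins and for Itgb1; some others were added after their values were seen. Partner genes were named at an unadjusted p under 0.05. Alternatives were the value added before log2, the linear scale, the detection filter, the methods' t-test, a variance trend, array weights, sex as a term, each mouse left out and each sex alone. Symbols are those of the array's annotation, some of them old. Lama3, Lama5, Itga8, Itga10 and Itgal were not analysed here, and the values of 1 tested member are not reported here.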

Additional observations from a re-analysis of the deposited data

Results flagged for a closer look

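In 5 of 38 groups of 4 mice, 1 mouse lay far from the other 3, by a cut that about 1 in 20 independent groups pass by chance. These groups are not independent, as they come from the same mice and some genes gave several probes. The share over all tested probes was not computed, so the count does not show an excess for laminins and integrins. The measure is the gap to the nearest mouse as a share of the whole range of the group. Control mouse 15 stood apart for Itgb4 (ILMN_3144575, 0.924), Itga5 (ILMN_2849449, 0.919) and Lamb2 (0.856), each time as the highest of its strain. Control mouse 16 stood apart for Itgav (0.924) and Lamc1 (0.840), both times as the lowest. The cause was not tested.

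For Itga11 (ILMN_2701778) both control males, 16 and 17, lay below both Nd2-mutant males, and both control females, 15 and 37, above both Nd2-mutant females. The strain difference in males minus that in females was 0.67 on the log2 scale, with an unadjusted p of 0.0709 for the interaction in limma, which did not pass the threshold before or after adjustment.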

How the results depend on the processing

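No paired analysis was possible because no mouse number occurs in both strains. Of 18 tested laminin and integrin probes reported singly, 11 kept their direction under all alternatives, and 25 of 360 values had another sign. Leaving out each mouse in turn, the differences ranged from -0.10 to 0.15 for Itga1, -0.053 to 0.32 for Itga11 ILMN_2844032, -0.10 to 0.26 for Itga11 ILMN_2701778, -0.11 to 0.27 for Itga5 ILMN_2670172, -0.27 to 0.17 for Itga5 ILMN_2849449, -0.061 to 0.24 for Itgav and -0.20 to 0.072 for Itgb1 ILMN_2789077. In females alone the values were -0.091 for Itga1, -0.12 and -0.25 for Itga11 ILMN_2844032 and ILMN_2701778, 0.084 for Itga5 ILMN_2849449 and -0.099 for Itgav, and in males alone -0.080 for Itga5 ILMN_2670172 and 0.12 for Itgb1 ILMN_2789077. With array weights they were -0.18 for Itga1, 0.071 for Itga5 ILMN_2849449 and 0.044 for Itgb1 ILMN_2789077, and on the linear scale -0.285 and 3.42 intensity units for Itga1 and Itga5 ILMN_2849449. The cause was not tested.

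The count of laminin and integrin probes at an unadjusted p under 0.05 (limma) was 6, and 5 to 7 with a mouse left out. It was 4 on the linear scale and 4 with the methods' t-test. For laminin chains it was 2, and 1 with the methods' t-test, with array weights and, at the lowest, with a mouse left out (1 to 2). For integrins it was 4, and 2 on the linear scale. For partner genes it was 15, 11 to 19 with a mouse left out, 11 with detection on all 8 arrays, and 10 on the linear scale. Over all probes it was 795, 1587 without the detection filter, and between 436 (without control mouse 16) and 1467 (without control mouse 17), with 474 without mouse 28. After adjustment, 3 of all probes passed without the filter and 1 with the methods' t-test. For sex the 2 laminin and integrin probes became 1 with 1 or 50 added or a variance trend, 0 on the linear scale, 4 with array weights and 0 to 3 with a mouse left out. For the interaction, 0 became 1 with 50 added, with detection on at least 1 array or with a variance trend, and 2 without the filter. Dim probes near background, such as Itga7, Lamb3 and Lamc3, are the least precise.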
